A study of Mus musculus with 18 samples.

Results

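The cytosolic ribosomal protein genes were followed in single macrophages and microglia of the mouse, from yolk sac and embryonic brain to the adult brain. Members were taken by name: every row of the deposited count matrix in which a gene symbol began with Rpl or Rps and a digit, or was Rplp0, Rplp1, Rplp2 or Rpsa. Names of S6 kinases, pseudogene names and names of the l1 paralogs were left out. This gave 82 of 27297 rows, of which 50 named large subunit proteins and 32 small subunit proteins. Of the 82 rows, 8 join the symbol of a ribosomal protein to other symbols, among them Rpl13a, Rpl31, Rpl34, Rpl36al, Rps2, Rps3 and Rps12. The rule also took in Rps19bp1, which is no ribosomal protein, and the paralogs Rps27l, Rpl36al, Rpl3l, Rpl10l and Rpl39l, which left 76 rows of core ribosomal proteins.

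Cells were sorted from CX3CR1-GFP+ C57BL/6J mice without treatment and profiled by MARS-seq, a plate method that counts the 3′ ends of transcripts with molecular identifiers (UMIs). There were 4 libraries of yolk sac at embryonic day 12.5 (E12.5), and in the brain 4 of E12.5, 6 of E18.5 and 4 of adults. All carry the CX3CR1-GFP reporter, and the yolk sac and E12.5 brain cells were gated as CD45+CD11B+CX3CR1-GFP+, whereas the E18.5 and adult cells were gated as CD45intCD11BintCX3CR1-GFP+. Age and gate therefore cannot be told apart between E12.5 and the later brains. The 18 libraries came from 9 plates of 2 libraries each and from 3 sequencing batches, and the deposited table gives 1 subject number for each age. P-values thus measure the spread between libraries, which may be technical.

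Of 3420 single-cell wells, 3012 held at least 300 UMIs and were kept: 671 of yolk sac, and 718, 992 and 631 of E12.5, E18.5 and adult brain. The median cell held 1511 UMIs in yolk sac, and 1725, 983 and 521 UMIs in E12.5, E18.5 and adult brain. Library totals were 269698 to 309084 UMIs in yolk sac, and 228467 to 534219, 143876 to 217647 and 74562 to 99494 UMIs in E12.5, E18.5 and adult brain. The summed level of the microglial marker list was 4149 to 5306 CPM (UMIs scaled to a library total of 1000000) in yolk sac, and 10640 to 11020, 22723 to 24085 and 37731 to 40746 CPM in E12.5, E18.5 and adult brain. Transcripts of the neuronal list were at 0 in the adult and yolk sac libraries and reached at most 72.8 CPM in the others. Erythroid markers summed to 163 to 4547 CPM in yolk sac, and to 13.1 to 368, 0 to 1333 and 0 to 80.5 CPM in E12.5, E18.5 and adult brain, the highest E18.5 value being that of replicate 6. Astrocyte markers summed to 0 to 7.26 CPM in yolk sac, and to 1.87 to 12.9, 11.1 to 34.8 and 111 to 197 CPM in E12.5, E18.5 and adult brain. Markers of yolk sac and border macrophages summed to 6024 to 9357 CPM in yolk sac, and to 696 to 1016, 988 to 1372 and 343 to 510 CPM in E12.5, E18.5 and adult brain. The part of these cells in the values of the members was not tested.

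The ribosome is built from a large and a small subunit, each a set of proteins on ribosomal RNA, and most of the proteins are needed in equal amounts. Their mRNAs belong to the 5′ TOP class: they start with a C followed by a run of pyrimidines, through which mTORC1 and the protein Larp1 control their translation. The same class holds elongation factors and a few other translation proteins. Cells that grow and divide make many ribosomes.

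The sequence around the transcription start was read from RefSeq (GRCm38.p6) for 55 members found in its promoter table. Of these, 39 (70.9%) held a run of at least 8 C or T on the coding strand within 40 bases either side of the start, against 29.2% of 27025 promoters. A run of at least 8 A or G was found in 12 members (21.8%), against 31.8% of all promoters. The letters CCGGAAG, which ETS family factors are known to bind, occurred on either strand within 250 bases before to 50 after the start in 22 members (40%), against 9.12% of all promoters. A match describes the letters and is no evidence of use. Windows are shown for some of the members with large falls between ages (Rps26, Rps10, Rplp2, Rpl34 and Rpl26). The most abundant small subunit gene Rps9 is shown as well. The start is the base after the first 40, and capitals mark the longest pyrimidine run.
Rps26 chr10:128626467-128626546, minus strand: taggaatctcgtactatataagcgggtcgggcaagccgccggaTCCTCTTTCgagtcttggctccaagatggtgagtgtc
Rps10 chr17:27635205-27635284, minus strand: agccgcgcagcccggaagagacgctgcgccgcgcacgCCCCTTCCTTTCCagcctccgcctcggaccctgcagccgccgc
Rplp2 chr7:141447611-141447690, plus strand: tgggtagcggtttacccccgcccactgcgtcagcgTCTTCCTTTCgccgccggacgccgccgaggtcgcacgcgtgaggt
Rpl34 chr3:130730359-130730438, minus strand: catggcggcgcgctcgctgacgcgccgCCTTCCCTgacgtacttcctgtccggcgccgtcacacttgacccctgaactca
Rpl26 chr11:68901526-68901605, plus strand: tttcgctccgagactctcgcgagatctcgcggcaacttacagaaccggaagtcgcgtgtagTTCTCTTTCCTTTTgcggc
Rps9 chr7:3704001-3704080, plus strand: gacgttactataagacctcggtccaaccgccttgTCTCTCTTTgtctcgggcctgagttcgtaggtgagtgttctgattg

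In these windows the run was 9 bases long in Rps26, 13 in Rps10, 10 in Rplp2, 8 in Rpl34, 14 in Rpl26 and 9 in Rps9. It covered the start in Rps10, Rplp2 and Rps9, lay just downstream of it in Rps26 and further downstream in Rpl26, and lay upstream of it in Rpl34. The letters CCGGAAG were found within 250 bases before to 50 after the start of Rps26, Rps10, Rplp2 and Rpl26, and not in that stretch of Rpl34 and Rps9. Genes with and without them were among those with the largest falls, as given with their values.

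Ribosomal protein transcripts took a smaller share of the transcripts of adult microglia than of the embryonic cells. Summed over the 82 rows, they made up 9.11% ± 0.528 of UMIs in yolk sac (SD, n = 4), and in the brain 8.29% ± 1.60 at E12.5 (n = 4), 5.39% ± 0.241 at E18.5 (n = 6) and 2.04% ± 0.267 in adults (n = 4). The highest adult library stood at 2.29% and the lowest E18.5 library at 5.14%, and the highest E18.5 library at 5.78% stayed under the lowest E12.5 brain library at 6.81%. The brain groups did not overlap, whereas the yolk sac libraries fell within the range of the E12.5 brain libraries. These are shares of a library's total, so fewer ribosomal protein transcripts and more of other transcripts in a cell cannot be told apart.

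Both subunits followed this order. Large subunit transcripts took 4.42%, 4.66%, 4.68% and 4.79% of UMIs in the yolk sac libraries, and 3.56%, 3.46%, 4.50% and 4.57% in those of E12.5 brain. They took 2.61%, 2.88% and 2.98% (lowest, median and highest) at E18.5, and 1.22%, 1.15%, 0.821% and 1.02% in adults. Small subunit transcripts took 4.91%, 5.07%, 3.84% and 4.08% in yolk sac, and 3.45%, 3.35%, 5.23% and 5.05% in E12.5 brain. At E18.5 they took 2.30%, 2.49% and 2.93%, and in adults 0.962%, 1.15%, 0.866% and 0.958%. Within E12.5 brain the second plate (replicates 3 and 4) stood above the first in both subunits. In yolk sac, the second plate stood lower in the small subunit alone. The ratio of large to small subunit UMIs was 1.05 ± 0.166 in yolk sac, and 0.959 ± 0.0884, 1.13 ± 0.118 and 1.07 ± 0.142 in E12.5, E18.5 and adult brain, ranges that overlapped.

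**Figure D1:**
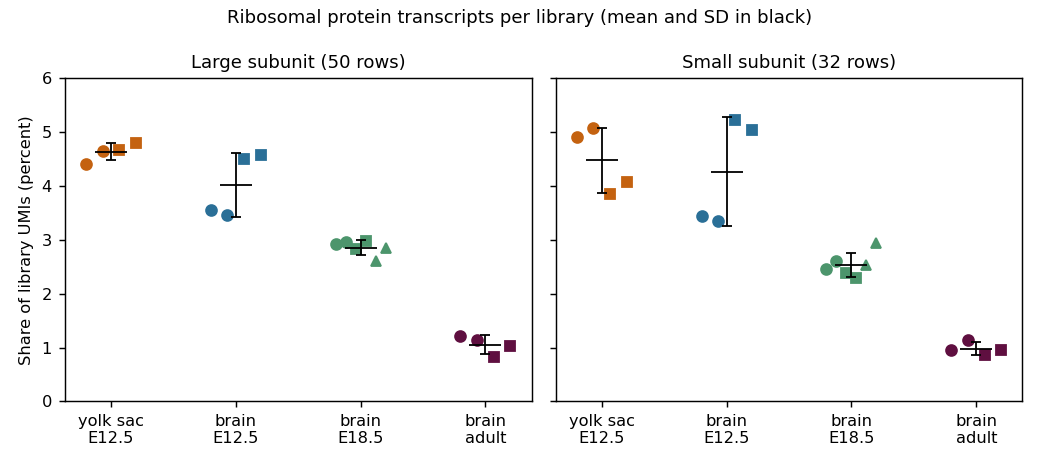
Share of each library's UMIs (percent, vertical axis) in large subunit rows (left) and small subunit rows (right) for the 4 groups; circles are replicates 1 and 2, squares 3 and 4, triangles 5 and 6, with the mean and SD in black. The adult libraries lie between 0.821% and 1.22% (large) and 0.866% and 1.15% (small), below all others, and the plates of E12.5 brain stand apart.

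The plot of shares by library shows both patterns: the steps between ages, and the distance between the plates of a group at E12.5.

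The share was also lower cell by cell. The median cell gave 9.00%, 9.36%, 8.30% and 8.50% of its UMIs to these rows in the yolk sac libraries, and 6.78%, 6.58%, 9.15% and 9.24% in those of E12.5 brain. Library medians ran from 5.04% to 5.68% at E18.5, and were 2.15%, 2.28%, 1.57% and 1.89% in adults. The median cell held 133 ribosomal protein UMIs in yolk sac, and 139, 52 and 11 in E12.5, E18.5 and adult brain, and no kept cell held none. In yolk sac 25% to 37.6% of the cells of a library gave over 10% of their UMIs to these rows, as did 1.60% to 5.41% of cells on the first and 34.9% to 38.5% on the second plate of E12.5 brain. At E18.5 these were 0% to 1.94% of cells, and in adults no cell. The highest single cell, in E12.5 brain replicate 3, stood at 29.2%.

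Cells of a library differed by more than counting error at each age. The SD of the share over cells was 2.87 to 3.52 times the binomial SD expected from the cells' UMI totals in yolk sac. It was 2.24 to 3.20 times in E12.5 brain, 1.65 to 2.73 times at E18.5 and 1.34 to 1.43 times in adults, where cells held fewer UMIs. Across the cells of a library, the shares of the large and the small subunit were correlated, with Pearson's r of 0.528 to 0.813 at E12.5, 0.347 to 0.670 at E18.5 and 0.169 to 0.305 in adults. Both shares come from the same cell and UMI total, and cells held fewer UMIs at the later ages. The part of UMIs per cell in r was not tested. A cell was counted as cycling at 2 or more UMIs over 40 cell-cycle rows, after each cell was thinned to 300 UMIs. Such cells were 17.1% to 20.3% of the cells of a library in yolk sac. They were 19.2% to 32.2%, 11.6% to 23.9% and 0.680% to 6.75% in E12.5, E18.5 and adult brain. In 36 empty wells, which held a median of 24 UMIs, 34 of 1008 UMIs were ribosomal protein transcripts (3.37%, 95% Wilson interval 2.42% to 4.68%, counting error only). In the empty wells of the adult plates these were 2 of 188 UMIs.

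**Figure D2:**
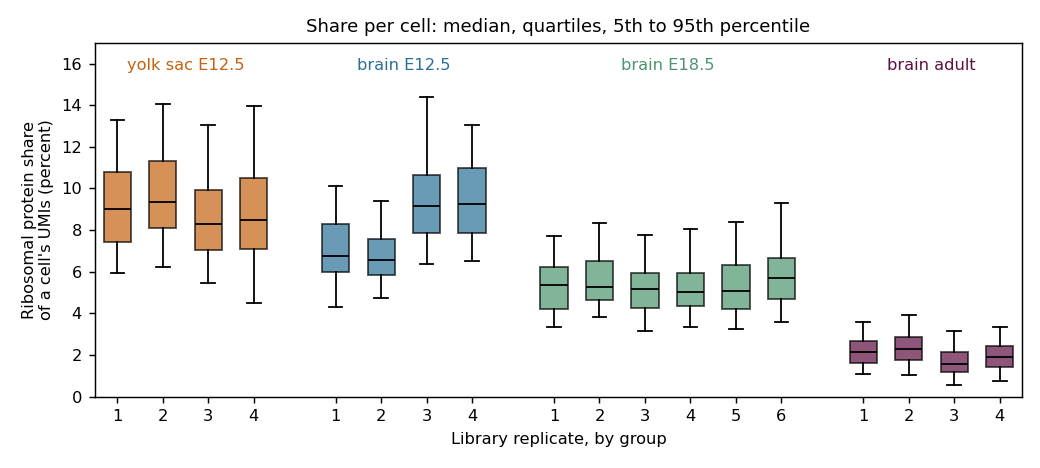
Ribosomal protein share of a cell's UMIs (percent, vertical axis) in each library (horizontal axis, by group); boxes give median and quartiles, whiskers the 5th to 95th percentile of cells. Adult medians lie between 1.57% and 2.28% and E18.5 medians between 5.04% and 5.68%, and the 2 plates of E12.5 brain differ (6.58% and 6.78% against 9.15% and 9.24%).

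The plot of shares per cell shows that whole distributions, not a few cells, were shifted between the ages.

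For single genes, UMIs were summed per library and tested with edgeR's quasi-likelihood test over 4883 rows (Benjamini-Hochberg adjusted p under 0.05 over all of them). Of the 82 members 53 passed the filter on low counts, 29 large and 24 small, and these held 99.4% of member UMIs. The 29 members not tested (21 large, 8 small) averaged at most 43.2 CPM in any group, the value of Rpl31 in yolk sac; Rpl10l and Rpl3l had no UMI at all. A UMI marks 1 transcript whatever its length. Levels of different genes are still compared with caution here, because many ribosomal protein genes share their 3′ ends with processed pseudogenes. Of the 21 members of at least 1000 CPM with an annotated 3′ end, 15 shared a stretch of 40 bases in their last 200 bases with another gene (median 2 other genes). Of the 34 such members under 100 CPM, 25 did (median 8 other genes). Values of those members may be split with, or hold reads of, their copies.

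In adult against E18.5 brain, 32 of the 53 tested members fell (60.4%) and none rose, beside 11.4% of all tested rows lower and 9.97% higher. The falls took in 18 of 29 large and 14 of 24 small subunit rows. With no member called higher by edgeR, 1 (Rps24) was higher at an unadjusted p under 0.05, and DESeq2 called 0 higher and 32 lower; without E18.5 replicate 1 or adult replicate 3, edgeR called Rps24 higher (log2 fold changes of 2.50 and 2.30, adjusted p = 0.0335 and 0.021). The median member changed by -1.26 on the log2 scale (large -1.36, small -1.09), against -0.04 for all tested rows, with a range of -4.19 to 1.85. In 32 members each adult library lay below each E18.5 library, beside 9.13% of all rows, and in none above, beside 7.7%. Of the 22 rows of at least 1000 CPM, 21 fell; the other was Rpl32. Both groups were in 1 sequencing batch and came through the same gate, and a fit of that batch alone called 37 lower. Among cells under the limit of 2 cell-cycle UMIs given above, 32 of 50 tested members fell.

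The most abundant small subunit genes fell by a moderate and even amount. Rps9, a protein at the mRNA entry channel, stood at 1578, 1560, 1465 and 1475 CPM in adult libraries, against 2798, 3018 and 3446 CPM (lowest, median and highest) at E18.5. The groups did not overlap, and the log2 fold change was -0.99 ± 0.15 (SE, edgeR adjusted p = 1.85e-06). Rps3, at the mRNA entry and also known as a DNA repair factor, stood at 1176, 1044, 977 and 764 CPM in adults, against 2505, 2934 and 3446 CPM at E18.5 (-1.54 ± 0.15, adjusted p = 2.31e-10). All adult libraries of Rps9 and Rps3 were below all E18.5 libraries.

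The stalk of the large subunit, Rplp0 with Rplp1 and Rplp2, recruits the elongation factors. Rplp0 stood at 844, 879, 686 and 939 CPM in adults, against 2297, 2367 and 2871 CPM at E18.5 (-1.53 ± 0.15, adjusted p = 4.11e-10). Rplp1, the most abundant member, stood at 2101, 2604, 1569 and 2159 CPM in adults, against 2455, 3915 and 4934 CPM at E18.5 (-0.86 ± 0.22, adjusted p = 0.0083). Rplp2 stood at 322, 385, 353 and 148 CPM in adults, against 404, 512 and 625 CPM at E18.5 (-0.75 ± 0.33, adjusted p = 0.118). Rplp0 and Rplp1 fell, with 1 adult library of Rplp1 above the lowest E18.5 library. Rplp2 did not pass with all groups in the fit, although its libraries did not overlap, and passed in the fit of that sequencing batch alone (-0.76, adjusted p = 0.0017). Rpl13a, also known in human monocytes as part of a translational silencing complex, fell by 1.36 on the log2 scale (SE 0.15, adjusted p = 1.76e-09).

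Several large subunit genes fell far more than the median member. Rpl34 stood at 50.3, 76.9, 83.1 and 67.1 CPM in adults, against 537, 1056 and 1363 CPM at E18.5 (-3.80 ± 0.46, adjusted p = 1.62e-05). Rpl26, which lies near the exit of the peptide tunnel, stood at 141, 176, 52.0 and 201 CPM in adults, against 1151, 1847 and 2209 CPM at E18.5 (-3.62 ± 0.29, adjusted p = 5.29e-09). Rpl37a stood at 50.3, 44.0, 52.0 and 67.1 CPM in adults, against 551, 593 and 717 CPM at E18.5 (-3.52 ± 0.51, adjusted p = 0.000102). In each of these genes the highest adult library was several times lower than the lowest E18.5 library. Rpl37 stood at 50.3, 11.0, 31.2 and 53.6 CPM in adults, against 284, 317 and 372 CPM at E18.5 (-3.11 ± 0.37, adjusted p = 1.4e-07). Rpl30 stood at 10.1, 44.0, 10.4 and 0 CPM in adults, against 127, 344 and 461 CPM at E18.5 (-4.19 ± 1.16, adjusted p = 0.0179). The Rpl30 call was lost without adult replicate 1, 3 or 4 (adjusted p = 0.0542, 0.0539 and 0.0502), the estimate staying negative. Rpl37 and Rpl37a shared no stretch of 40 bases at their 3′ ends with another gene, whereas Rpl30 shared 72.0% of its stretches with 16 genes, Rpl26 69.6% with 11 and Rpl34 49.7% with 7. Large falls were found in genes of both kinds, and the part of shared 3′ ends in the falls was not tested.

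**Figure D3:**
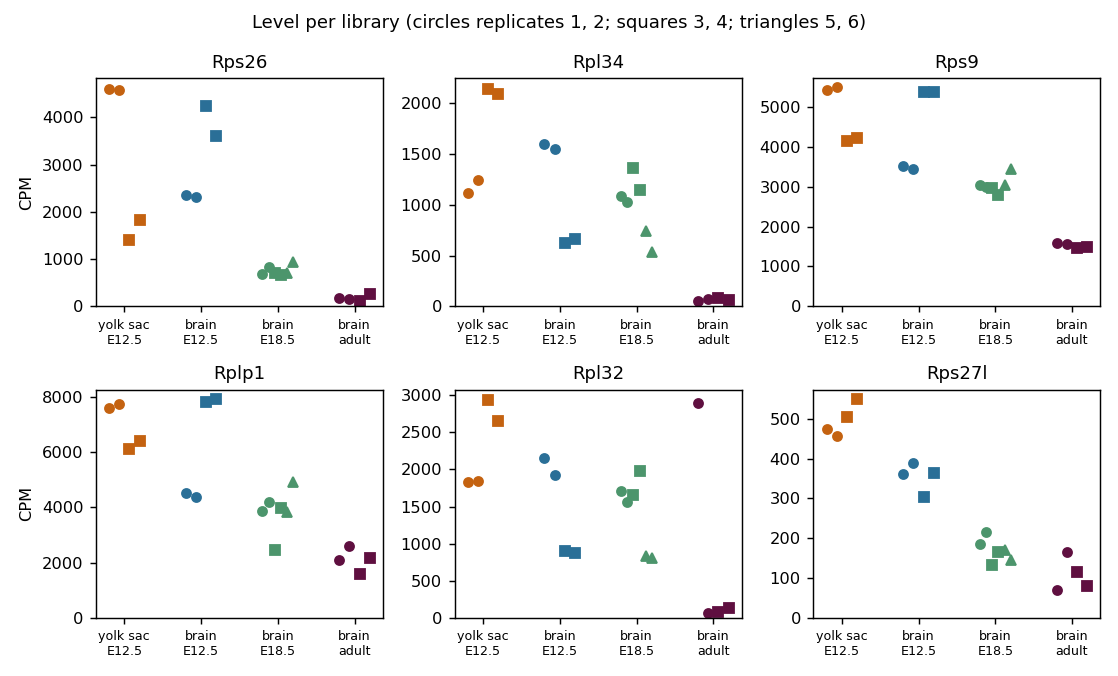
CPM (vertical axis, from 0) of 6 members in every library, by group; circles are replicates 1 and 2, squares 3 and 4, triangles 5 and 6. Rps9 steps down with age, Rps26 falls in both intervals, the E12.5 plates of Rpl34 stand apart, and 1 adult library of Rpl32 stands at 2895 CPM.

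The plot of CPM by library shows Rpl32 as an exception among abundant members. Rpl32 stood at 2895, 65.9, 72.7 and 134 CPM in adults, against 802, 1609 and 1984 CPM at E18.5 (-0.78 ± 0.78, adjusted p = 0.538). Adult replicate 1 alone was high, and without it Rpl32 was called lower (-3.99, adjusted p = 8.36e-05). In that library 115 of 163 cells (70.6%) held an Rpl32 UMI, up to 7 in a cell, against 6 of 158, 5 of 163 and 7 of 147 cells in the other adult libraries. The high value was thus spread over cells. The 8 empty wells of the adult plates held no Rpl32 UMI. They held 188 UMIs in all, too few to tell whether background carried Rpl32. The cause was not tested. Rps24 was the only tested member with a positive estimate (1.85 ± 0.80, adjusted p = 0.11) and was picked out after its values were seen. It stood at 121, 110, 0 and 40.2 CPM in adults and averaged 19.3 ± 23.3 CPM at E18.5 (SD, n = 6).

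In E18.5 against E12.5 brain, 24 of the 53 tested members fell (45.3%) and 1 rose, beside 11.8% of all tested rows lower and 12.1% higher. The falls took in 14 of 24 small but 10 of 29 large subunit rows, and the median member changed by -0.64 among small and -0.08 among large subunit rows, against 0.01 for all tested rows. This count depended on the E12.5 plates: it was 29 without the first plate (replicates 1 and 2) and 7 without the second (replicates 3 and 4), where the median over both subunits was -0.20. In 14 members each E18.5 library lay below each E12.5 library, beside 10.6% of all rows, and in 2 members above, beside 8.11%. E12.5 brain and E18.5 brain were never sequenced in 1 batch, and the yolk sac libraries link the batches. With sequencing batch as a covariate 18 members fell, 13 of them among the 24, and the median was -0.66. Age and gate cannot be told apart.

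Rps26, which contacts mRNA near the exit, stood at 665, 706 and 929 CPM in E18.5 libraries, against 2365, 2310, 4233 and 3598 CPM at E12.5 (-2.03 ± 0.33, adjusted p = 0.000338). Rps10, a protein of the small subunit head near the mRNA entry, stood at 51.6, 76.4 and 99.6 CPM in E18.5 libraries, against 223, 236, 784 and 429 CPM at E12.5 (-2.43 ± 0.53, adjusted p = 0.00359). Both genes had every E18.5 library below every E12.5 library. Without the second E12.5 plate Rps10 no longer passed (-1.54, adjusted p = 0.0723). Rps4x, the X-linked form of Rps4, stood at 37.9, 88.4 and 111 CPM in E18.5 libraries, against 160, 139, 249 and 249 CPM at E12.5 (-1.21 ± 0.27, adjusted p = 0.00106). It too was lost without the second plate (-0.78, adjusted p = 0.0842), although the groups did not overlap.

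Rps29 stood at 66.4, 69.2 and 76.5 CPM in E18.5 libraries, against 172, 157, 120 and 171 CPM at E12.5 (-1.10 ± 0.37, adjusted p = 0.0292). Its groups did not overlap, yet leaving out single libraries moved the adjusted p to between 0.0535 and 0.0708 in those fits that lost it. Among abundant members, Rps9 fell by 0.52 (SE 0.14, adjusted p = 0.0036), against E12.5 levels of 3524, 3441, 5377 and 5379 CPM. Rps3 fell by 0.54 (SE 0.14, adjusted p = 0.00267), against 3441, 3605, 5394 and 4793 CPM at E12.5. These changes of Rps9 and Rps3 rested on the second plate: without it the log2 fold change was -0.13 for Rps9 and -0.20 for Rps3. Of the 22 rows of at least 1000 CPM, 17 fell (77.3%), beside 11.8% of all tested rows. In 9 of the 22 every E18.5 library lay below every E12.5 library, those of the first plate included, beside 10.6% of all rows.

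The stalk genes fell too. Rplp2 had every E18.5 library below its E12.5 levels of 1038, 964, 1830 and 1834 CPM (-1.43 ± 0.27, adjusted p = 0.000876). Rplp1 fell by 0.65 (SE 0.21, adjusted p = 0.0275), with 4529, 4395, 7815 and 7949 CPM at E12.5, and Rplp0 by 0.43 (SE 0.14, adjusted p = 0.0193), with 2788, 2585, 3959 and 3939 CPM. Of these, Rplp2 showed a clear distance between the ages. Without the second E12.5 plate Rplp1 stood at -0.14 and Rplp0 at -0.08, and the loss of replicate 3 or 4 alone ended both calls (adjusted p = 0.119 and 0.118 for Rplp1, 0.12 and 0.107 for Rplp0). Rpl13a fell by 0.36 (SE 0.13, adjusted p = 0.0394) and stood at -0.01 without that plate.

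Rpl3, a large subunit protein that reaches toward the peptidyl transferase centre, was the single member called higher. It stood at 116, 143 and 177 CPM in E18.5 libraries, against 85.0, 80.5, 103 and 101 CPM at E12.5 (0.70 ± 0.25, adjusted p = 0.0332). Every E18.5 library lay above every E12.5 library. The call was lost without E12.5 replicate 1 or 2 or without E18.5 replicate 1, 3 or 4 (adjusted p between 0.0625 and 0.131). In adults Rpl3 stood at 50.3, 98.9, 52.0 and 67.1 CPM and fell against E18.5 (-1.09 ± 0.32, adjusted p = 0.0112), a call lost without adult replicate 1 or 3 (adjusted p = 0.0521 and 0.0535).

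Among abundant members that missed the threshold was Rpl4, which lines the peptide exit tunnel. It stood at 1377, 2474 and 2997 CPM in E18.5 libraries, against 3532, 3456, 1448 and 1672 CPM at E12.5 (-0.08 ± 0.27, adjusted p = 0.857). Its E12.5 plates lay on either side of the E18.5 median. It was low in adults, with 271, 473, 260 and 215 CPM (-2.90 ± 0.34 against E18.5, adjusted p = 1.1e-05).

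Set against E12.5 brain, adult brain had 37 of 53 tested members lower (69.8%) and none higher, beside 20% of all rows lower and 18.2% higher. This comparison shares its libraries with both others, so its values stand beside theirs. No member was higher at an unadjusted p under 0.05 either, and DESeq2 called 0 higher and 39 lower. The median was -1.87, against -0.05 for all tested rows. In 37 members every adult library lay below every E12.5 library, beside 19% of all rows, and in none above, beside 15.3%. The count was 35 without the first and 34 without the second E12.5 plate, so it did not turn on the plate. Gate and sequencing batch differ between these groups as well, and 40 members fell with sequencing batch as a covariate.

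Rps26 stood at 171, 154, 104 and 255 CPM in adults, a log2 fold change of -4.18 ± 0.46 against E12.5 (adjusted p = 3.06e-06), with -2.03 between E12.5 and E18.5 and -2.15 ± 0.44 between E18.5 and adult (adjusted p = 0.00274). Rpl34 differed by -3.94 ± 0.47 between adult and E12.5 (adjusted p = 5.05e-06), with -0.14 ± 0.30 by E18.5 (adjusted p = 0.767), and Rpl26 by -3.55 ± 0.30 (adjusted p = 3e-09), with 0.07 ± 0.21 by E18.5 (adjusted p = 0.85). Their E18.5 estimates average E12.5 plates on either side: Rpl34 stood at 1594, 1552, 626 and 665 CPM and Rpl26 at 2199, 2209, 1358 and 1046 CPM in E12.5 brain. Without the first plate the estimate by E18.5 was 0.56 for Rpl34 (adjusted p = 0.195), and without the second it was -0.28 for Rpl26 (adjusted p = 0.445). Rps26 fell in both intervals. Rpl37 differed by -3.56 ± 0.37 between adult and E12.5 (adjusted p = 2.54e-09). Rpl30 differed by -3.94 ± 1.20 (adjusted p = 0.0175), which was lost without the first E12.5 plate (-1.99, adjusted p = 0.268) and without adult replicate 3 (adjusted p = 0.0503). Rps10 stood at 30.2, 11.0, 72.7 and 26.8 CPM in adults and fell by 3.46 against E12.5 (SE 0.79, adjusted p = 0.00282), but not beyond its error against E18.5 (-1.04 ± 0.91, adjusted p = 0.477).

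Rps9, Rps3, the stalk genes and Rpl13a fell against E12.5 by less than Rps26, Rpl34, Rpl26 and Rpl37. This did not hold for abundant members as a set. The median over the 22 rows of at least 1000 CPM was -2.08, against -1.87 for all tested members. The log2 fold change was -1.51 ± 0.16 for Rps9 (adjusted p = 2.34e-10) and -2.08 ± 0.16 for Rps3 (adjusted p = 9.11e-14). It was -1.95 ± 0.16 for Rplp0 (adjusted p = 7.62e-13), -1.52 ± 0.24 for Rplp1 (adjusted p = 4.98e-05), -2.17 ± 0.34 for Rplp2 (adjusted p = 5.86e-05) and -1.73 ± 0.16 for Rpl13a (adjusted p = 4.75e-12). The stalk proteins and the small subunit proteins of mRNA entry were thus among the falls. Rpl3 did not pass (-0.40 ± 0.34, adjusted p = 0.387), nor did Rpl32 (-0.78 ± 0.83, adjusted p = 0.49), which passed without adult replicate 1 (-4.03, adjusted p = 3.23e-05). Rpl23 did not pass either (-2.34 ± 1.18, adjusted p = 0.134); it averaged 110 ± 117 CPM in adults and 533 ± 398 CPM at E12.5 (SD, n = 4 each), with E12.5 plates far apart.

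**Figure D4:**
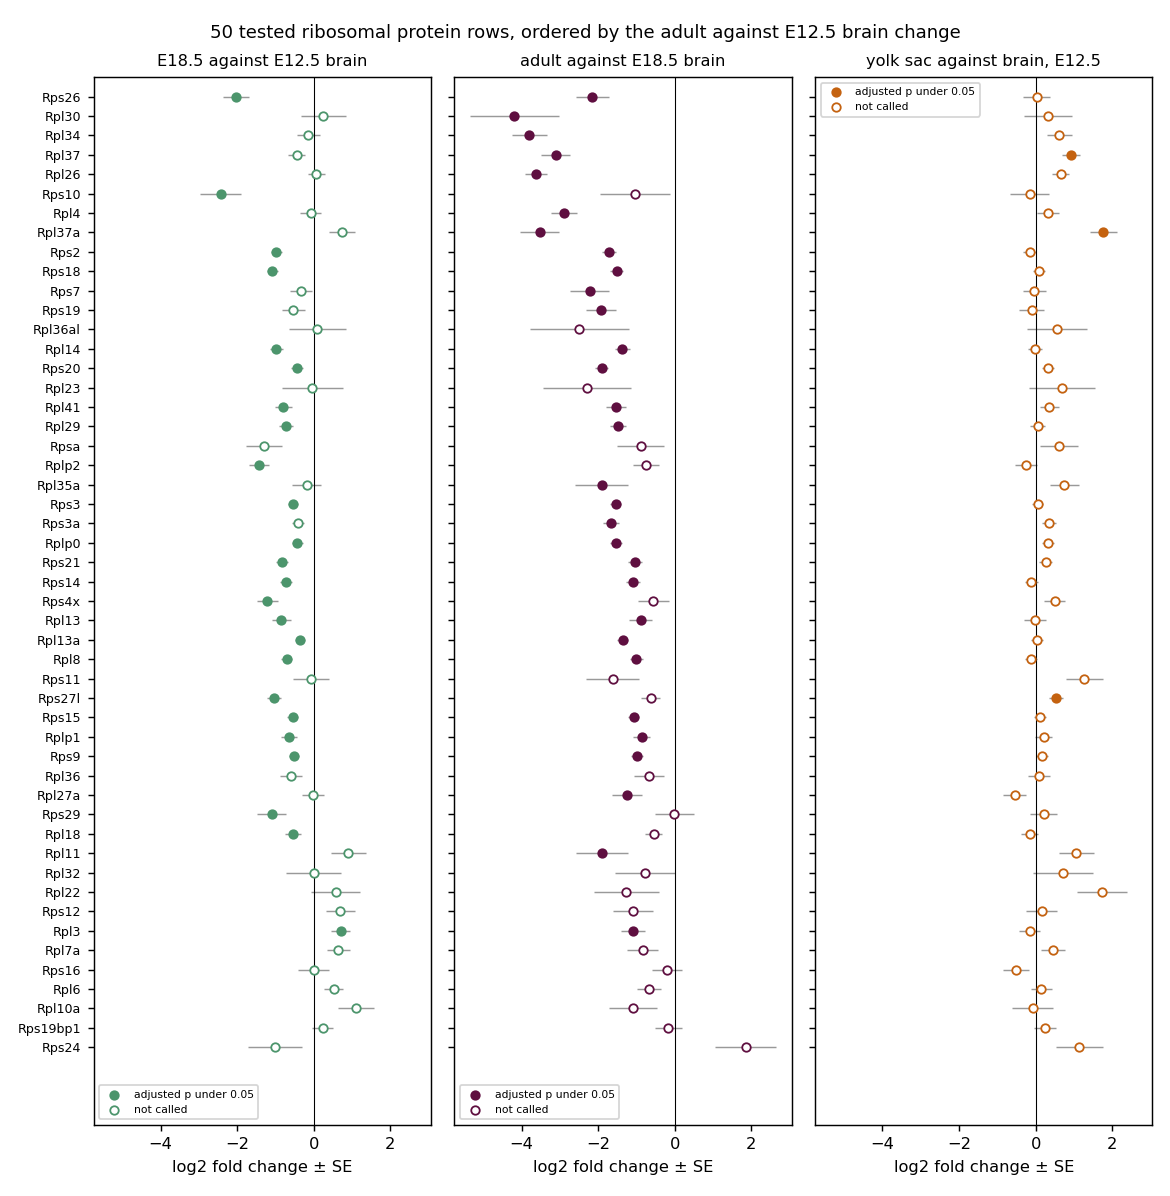
Log2 fold change (horizontal axis) with its SE for 50 of the 53 tested members (vertical axis), in E18.5 against E12.5 brain, adult against E18.5 brain and yolk sac against E12.5 brain; filled points passed the test, here 1 rise and 23 falls by E18.5, 30 falls in adults and 3 rises in yolk sac. Members are ordered by their change in adult against E12.5 brain.

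The plot of fold changes shows the wide shift to the left in adults and its absence in yolk sac.

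Yolk sac cells were set against brain cells of the same day and gate. Of the 53 tested members 3 rose in yolk sac (5.66%) and none fell, beside 7.35% of all rows higher and 8.42% lower. The members' share was thus no larger than that of all rows. No member was lower at an unadjusted p under 0.05, and DESeq2 called 4 higher and 0 lower. The median was 0.17, against -0.03 for all rows, with a range of -0.55 to 1.77. In 2 members each yolk sac library lay above each brain library, beside 8.36% of all rows, and in none below, beside 11.6%. The count moved with the plates: 18 higher and 1 lower without the second E12.5 brain plate, 6 and 4 without the first yolk sac plate, 1 and 0 without the second yolk sac plate, and 8 and 4 within the sequencing batch that held both tissues. Without yolk sac replicate 1 or 2 it was 5 and 6 higher, and without brain replicate 4 it was 5.

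Rpl37a stood at 466, 668, 1783 and 2058 CPM in yolk sac, against 376, 322, 480 and 333 CPM in E12.5 brain (1.77 ± 0.35, adjusted p = 0.00171). Rpl37 stood at 662, 679, 822 and 1109 CPM in yolk sac, against 263, 331, 647 and 547 CPM in brain (0.93 ± 0.23, adjusted p = 0.0031). Every yolk sac library lay above every brain library for Rpl37, and 1 yolk sac library of Rpl37a lay within the brain range; in both genes the second yolk sac plate was the highest. Both were lost with sequencing batch in the model (0.49, adjusted p = 0.13 for Rpl37a; 0.17, adjusted p = 0.731 for Rpl37), and Rpl37 within 1 batch (0.18, adjusted p = 0.463) and without either the first brain plate (0.46, adjusted p = 0.175) or the second yolk sac plate (0.66, adjusted p = 0.0949). Without the first brain plate Rpl37a also missed the threshold (1.62, adjusted p = 0.0531). Rplp0 was not called (0.32 ± 0.15, adjusted p = 0.169), with 4307, 4532, 3400 and 3819 CPM in yolk sac. Rps9 (0.17 ± 0.15, adjusted p = 0.554) and Rplp1 (0.21 ± 0.23, adjusted p = 0.642) were not called, and for both the estimate was below 0 without the first brain plate.

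Rps27l, a paralog of Rps27 that is known as a p53 target in human cells, was among the rows taken by name. It stood at 474, 457, 505 and 549 CPM in yolk sac, against 362, 387, 304 and 363 CPM in E12.5 brain, with no overlap (0.54 ± 0.18, adjusted p = 0.0393). The loss of single libraries ended that call (adjusted p between 0.0649 and 0.134 in the fits that lost it). In the brain it stood at 133, 168 and 215 CPM at E18.5, below every E12.5 library (-1.04 ± 0.18, adjusted p = 2.84e-05). Adult libraries stood at 70.4, 165, 114 and 80.5 CPM, which missed the threshold against E18.5 (-0.63 ± 0.25, adjusted p = 0.064), passed without adult replicate 2 (-0.90, adjusted p = 0.0188), and was lower than E12.5 (-1.67 ± 0.24, adjusted p = 4.05e-07). Rpl36al, the paralog of Rpl36a, was not called in any of the 4 comparisons with all libraries. Rpl7l1, left out by the rule as an l1 paralog and known from ribosome assembly, stood at 236 ± 32.5, 141 ± 35.9 and 118 ± 28.9 CPM in E12.5, E18.5 and adult brain (E18.5 against E12.5 -0.70 ± 0.20, adjusted p = 0.00848).

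Rpsa, a small subunit protein also known as the laminin receptor, differed widely between the E12.5 brain plates. It stood at 1006, 1118, 1068 and 1316 CPM in yolk sac, against 261, 258, 1268 and 1261 CPM in E12.5 brain (0.61 ± 0.49, adjusted p = 0.506). At E18.5 it stood at 175, 274 and 445 CPM (-1.31 ± 0.47, adjusted p = 0.0576), and it passed without E12.5 replicate 1 or 2 (adjusted p = 0.0147 and 0.0138) but was 0.28 without the second plate. In adults it stood at 121, 286, 114 and 121 CPM and was lower than in E12.5 brain (-2.20 ± 0.62, adjusted p = 0.0114), which was lost without the second plate (-0.65, adjusted p = 0.129). The first E12.5 plate was at the level of the E18.5 libraries, and the second at that of yolk sac.

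Fau, a ribosomal protein made as a fusion to a ubiquitin-like domain, falls outside the naming rule. It was not called in any comparison, at 22.5 CPM on average in adults and 51.4 CPM in E12.5 brain.

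Plates of 1 group were also compared with each other. In E12.5 brain, 29 of 58 members tested between plates were higher on the second plate than on the first and 6 were lower, beside 3.43% of 5896 rows higher and 4.77% lower. The lower ones were Rpl4, Rpl23, Rpl26, Rpl30, Rpl34 and Rpl36al. In yolk sac, 11 were higher on the second plate and 10 lower, beside 3.66% and 1.59% of rows. At E18.5 the third plate (replicates 5 and 6) had 1 member higher and 7 lower than the second (replicates 3 and 4), beside 0.153% and 1.03% of rows. The third against the first had 1 higher and 3 lower (0.153% and 0.322% of rows), and the second against the first had 1 higher and none lower (0.187% and 0.017%). In adults edgeR called no member between plates (0.0509% and 0.0339% of rows), although 10 had an unadjusted p under 0.05. The E12.5 plates were in different sequencing batches, in brain as in yolk sac; the E18.5 plates shared 1 batch. The second brain plate and the first yolk sac plate were sequenced together, and the second yolk sac plate together with all E18.5 and adult plates.

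Some members moved together and against others between plates; they were picked out after their values were seen. Rpl30 stood at 457, 462, 51.4 and 78.8 CPM in E12.5 brain replicates 1 to 4, which is -2.69 ± 0.29 for the second plate against the first. It stood at 130, 134, 573 and 471 CPM in yolk sac, where the second plate was higher (1.95 ± 0.25), and at E18.5 the third plate was lower than the second (-1.46 ± 0.27). Rpl34 and Rpl4 took the same signs in the same plates, with -1.16 ± 0.15, 0.80 ± 0.14 and -0.96 ± 0.16 for Rpl34 and -1.04 ± 0.13, 0.51 ± 0.13 and -0.79 ± 0.13 for Rpl4. Rps26 and Rps10 took the opposite signs, with 0.87 ± 0.14 in brain and -1.55 ± 0.14 in yolk sac for Rps26, and 1.53 ± 0.23 and -2.05 ± 0.26 for Rps10. Rps26 thus stood at 4600, 4576, 1394 and 1821 CPM in yolk sac, where its plates did not overlap. For Rpl30, Rpl34, Rpl4, Rps26 and Rps10 the second brain plate lay on the same side of its group as the first yolk sac plate, with which it was sequenced. Rpsa was higher on the second plate in brain (2.41 ± 0.24) and stood at 0.13 in yolk sac, while Rpl37a was higher on the second plate in yolk sac (1.72 ± 0.17) and stood at 0.35 in brain.

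Eef1a1, the elongation factor that brings aminoacyl-tRNA to the ribosome, varied in the pattern of Rpl30. It stood at 2031, 2143, 189 and 219 CPM in E12.5 brain and at 285, 178, 2051 and 1157 CPM in yolk sac. In E18.5 replicates 1 to 6 it stood at 1859, 1126, 3079, 2987, 1020 and 310 CPM. Libraries of 1 group thus differed many-fold in a gene that all cells use. The part of the plates in the differences between ages was measured by leaving each E12.5 plate out, as given above. The cause of the plate differences was not tested.

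**Figure D5:**
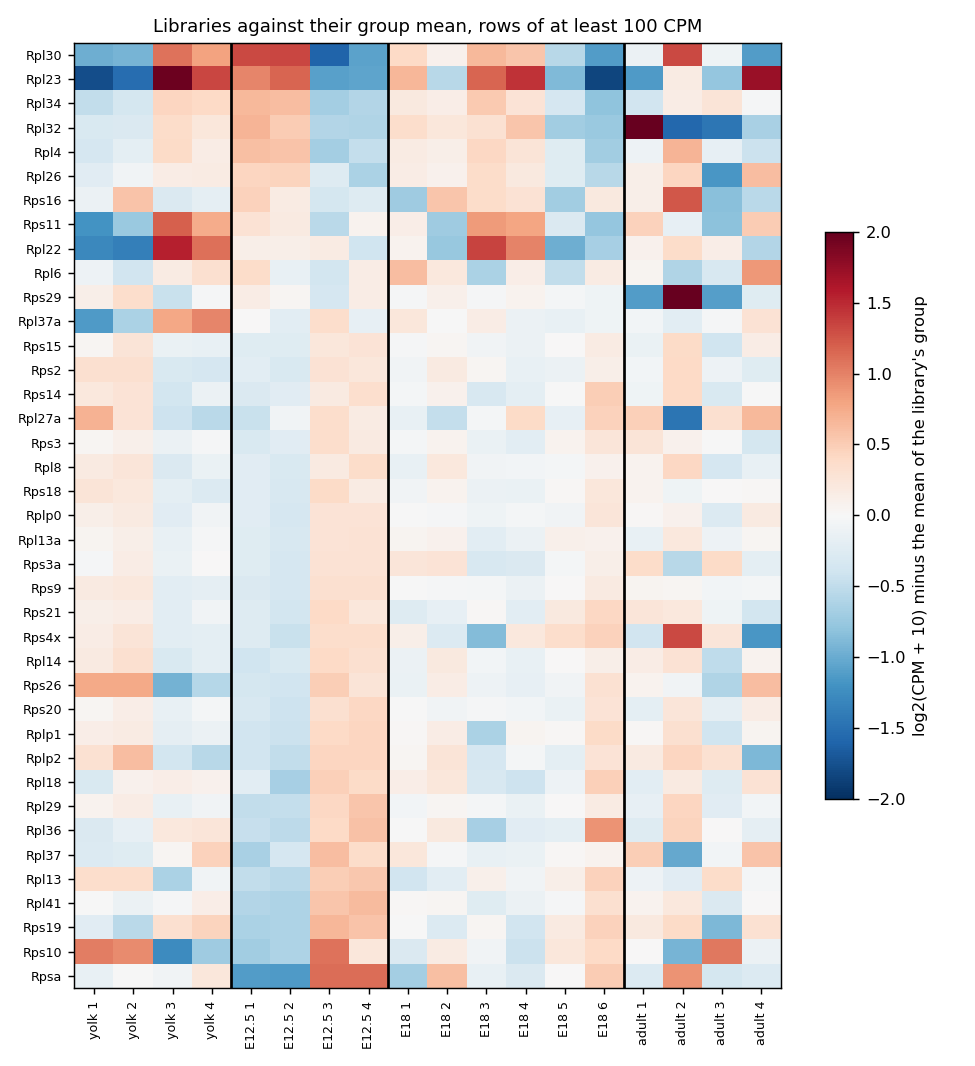
Deviation of each library from the mean of its group, as log2(CPM + 10) with colour limits of ±2, for 39 members of at least 100 CPM, without paralogs, (vertical axis) in 18 libraries (horizontal axis); red is higher than the group mean and blue lower. Rpl30, Rpl34 and Rpl4 are opposite in sign to Rps26, Rps10 and Rpsa between the E12.5 brain plates, and adult libraries show single deviations in Rpl32, Rps29 and Rpsa.

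The plot of deviations orders members by the second E12.5 brain plate, and the yolk sac columns show the order partly turned round.

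Other genes of translation were set beside the members and beside the shares of all tested rows given above. A list of the TOP class, called TOP factors here, holds translation factors and also other genes, such as Hnrnpa1. Of its 14 tested genes, 13 (92.9%) fell in adult against E18.5 brain and none rose (median -1.30), against 11.4% of all rows lower. Eef1g, a subunit of the exchange factor of elongation, fell by 2.44 (SE 0.23, adjusted p = 4.64e-11), and Eef2, which moves the ribosome along the mRNA, by 0.87 (SE 0.15, adjusted p = 2.02e-05). Eef1a1 fell by 3.19 (SE 1.05, adjusted p = 0.0432), a call lost without most single libraries. In E18.5 against E12.5 brain 4 of these 14 (28.6%, beside 11.8% of all rows) fell (Eef2, Gnb2l1, Naca and Pabpc4; 2 without the second E12.5 plate) and Hnrnpa1 rose by 1.64 ± 0.38 (adjusted p = 0.00135). In adult against E12.5 brain 11 (78.6%, beside 20% of all rows) fell and none rose. Where none rose, edgeR gave 0 at an unadjusted p under 0.05 and DESeq2 0. In yolk sac against E12.5 brain Pabpc4, a poly(A)-binding protein, was lower (-1.28 ± 0.33, adjusted p = 0.00461) and none was higher.

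Mitochondrial ribosomal proteins, which build the separate ribosome of the mitochondria, were also counted. Of 51 tested, 6 (11.8%) fell and none rose in adult against E18.5 brain, near the 11.4% of all rows lower (median -0.17; Mrpl22 -2.06 ± 0.76, adjusted p = 0.0469), and 3 fell without adult replicate 3 or 4. In E18.5 against E12.5 brain 25 (49%) fell and none rose, against 11.8% of all rows lower (median -0.66; Mrps12 -1.39 ± 0.28, adjusted p = 0.000226), or 6 without the second E12.5 plate. In adult against E12.5 brain 26 (51%) fell, against 20% of all rows (Mrps21 -2.36 ± 0.29, adjusted p = 1.44e-08). In adult against E18.5 brain 2 were higher at an unadjusted p under 0.05, none in the other ages, and DESeq2 called 0 higher. In yolk sac against E12.5 brain 2 rose (Mrpl30 and Mrps24; 1 without yolk sac replicate 4 or brain replicate 1) and none fell, with 5 lower at an unadjusted p under 0.05 and 0 by DESeq2. Whether these counts differ from those of the cytosolic members was not tested.

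Of 28 tested initiation factors 5 (17.9%) fell in adult against E18.5 brain, against 11.4% of all rows (Eif4e2 -1.35 ± 0.38, adjusted p = 0.008). In adult against E12.5 brain 12 (42.9%) fell, against 20% of all rows (Eif3k -1.87 ± 0.25, adjusted p = 2.54e-07), and none rose in either (edgeR; 1 at an unadjusted p under 0.05 in each, 0 by DESeq2). In E18.5 against E12.5 brain 9 (32.1%) fell, against 11.8% of all rows (Eif3i -0.99 ± 0.19, adjusted p = 0.000174), or 1 without the second E12.5 plate. Of 32 tested genes of ribosome assembly, 4 (12.5%) fell and 2 (6.25%) rose in adult against E18.5 brain, near or under the 11.4% of all rows lower and 9.97% higher. Ncl, the nucleolar protein nucleolin, fell by 1.18 (SE 0.16, adjusted p = 1.99e-07), and Nop2 and Rrp1b rose, of which none was called without E18.5 replicate 1 or 4 or adult replicate 3 and 1 without E18.5 replicate 2 or 3 or adult replicate 1 or 2. In E18.5 against E12.5 brain 4 (12.5%, beside 11.8% of all rows) fell (2 without the second plate, or without E12.5 replicate 3 or 4 or E18.5 replicate 3 alone), among them Polr1d, a subunit of RNA polymerases I and III (-0.77 ± 0.19, adjusted p = 0.00244). In adult against E12.5 brain 7 (21.9%, beside 20% of all rows) fell (4 without E12.5 replicate 1) and 2 rose.

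Of 14 tested regulators around Myc and mTORC1, 3 (21.4%, beside 9.97% of all rows) rose in adult against E18.5 brain and none fell (0 at an unadjusted p under 0.05, 0 by DESeq2). These 3 were Ddit4, an inhibitor of mTORC1, Rps6ka1 and Rptor. Ddit4 rose by 2.65 ± 0.51 (adjusted p = 0.000132), and by 3.70 ± 0.57 against E12.5 brain (adjusted p = 1.31e-06), where it alone was called. In E18.5 against E12.5 brain 2 of the 14 fell (14.3%, beside 11.8% of all rows), among them Rps6ka1, and none rose. In yolk sac against E12.5 brain 2 rose (14.3%, beside 7.35% of all rows), among them Larp1. In that comparison 3 fell (21.4%, beside 8.42% of all rows), among them Rps6ka1 and Rptor, and DESeq2 called 2 lower. The activity of mTORC1 was not tested. Of 26 tested cell-cycle genes 18 (69.2%, beside 11.4% of all rows) fell and none rose in adult against E18.5 brain (0 at an unadjusted p under 0.05, 0 by DESeq2). Tpx2, a spindle protein, had no UMI in adult cells against 80.9 ± 34.0 CPM at E18.5, at least 9.75-fold lower with a floor of 3 counts over the adult group. Of 15 tested immediate early genes, which respond to handling and tissue dissociation among other stimuli, 6 (40%, beside 9.97% of all rows) rose and 1 fell in adult against E18.5 brain. Of the same 15, 13 (86.7%, beside 12.1% of all rows) rose in E18.5 against E12.5 brain. Precursor markers of granulocytes and monocytes summed to 2548 to 9483 CPM in adults against 262 to 1272 CPM at E18.5, with S100a8 and Ccr2 at 0 in adults. Their part in the adult values was not tested. As given above, the fall of members was also counted among cells under the limit of 2 cell-cycle UMIs.

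Across the 18 libraries, the genes outside the list whose level was most like the summed ribosomal protein share, of 2020 candidates, were Ftl1 (Pearson's r = 0.988), Atp5e (0.982), Ybx1 (0.980), Nme2 (0.979) and Hint1 (0.974). These r describe 4 groups that differ in level, with libraries of 1 plate sharing a source. Ftl1, the ferritin light chain, averaged 18795 CPM in yolk sac and 13019, 7080 and 1995 CPM in E12.5, E18.5 and adult brain. Ybx1 is an mRNA-binding protein, and Atp5e a subunit of the mitochondrial ATP synthase.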

How the data were processed

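Per the labels' protocols, single sorted cells were profiled by 3′ MARS-seq. The authors deposited UMI counts per gene row and well; reads were demultiplexed with bcl2fastq 2.15.0.4 and the build was mm9, per the submitters' processing notes. Aligner, UMI collapsing and annotation: not given in the sources used here. Deposited files do not pair rows with coordinates, and promoter windows come from RefSeq on GRCm38.p6, a different build.

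Wells with 1 cell and at least 300 UMIs were kept, and UMIs were summed per library (74562 to 534219 UMIs; CPM scales these totals to 1000000). edgeR 4.0.16 (R 4.3.3) fitted all 18 libraries in 1 quasi-likelihood model with TMM factors and its filter on low counts; p-values were Benjamini-Hochberg adjusted over 4883 rows. Plates were compared in a fit with 1 term per plate over 5896 rows. DESeq2 1.42.0, other scalings, filters, thinning, sequencing batch and leaving out libraries or plates were alternatives; the whole plates were added after the data were seen. Replicates were numbered in accession order within a group. Libraries of a group differed by 1.44 to 4.60 times sampling noise (chi-square per degree of freedom). At E12.5, in brain and yolk sac, this was 1.44 to 1.97 within a plate and 3.44 to 4.60 between plates. Libraries shared 339 pairs of barcodes, none within a sequencing batch. Doublets were not called, since wells were sorted to hold 1 cell.

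On simulated counts with 200 changed rows, the test recovered, at a log2 change of 2 and of 1, 97.9% and 59.8% for yolk sac, 99.0% and 58.3% for E18.5, 90.2% and 46.4% for adult against E18.5 and 93.6% and 42.6% for adult against E12.5. Of the rows called there, 6.88%, 3.23%, 1.54% and 5.88% were unchanged rows, in the same order. The simulated libraries were independent, with the same dispersion for every row and no plate differences. Recovery in the real libraries, whose plates differed, may be lower. The members and lists were chosen with earlier results of these data known. Named members are, in each comparison, up to 5 called in each direction with the largest change and at least 100 CPM, the 2 most abundant that missed, the 3 most abundant of each subunit, the stalk, Rpsa, Rpl3, and paralogs. Some members are not reported here by name. From the lists of related genes, those with the largest change were named.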

Additional observations from a re-analysis of the deposited data

Results flagged for a closer look

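Of 104 groups of members in which a single far library was looked for (Dixon's criterion), 4 held one; chance gives about 1 in 20. Rpl32 stood at 2895 CPM in adult replicate 1, with the other adult libraries at 65.9 to 134 CPM. Rps29 stood at 231 CPM in adult replicate 2, where 19 of 158 cells (12.0%) held a UMI, with the other adult libraries at 10.1 to 26.8 CPM. Rpsa stood at 286 CPM in the same library, in 24 of 158 cells (15.2%), with the others at 114 to 121 CPM. Rplp0 stood at 2871 CPM in E18.5 replicate 6, with the others at 2297 to 2401 CPM.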

How the results depend on the processing

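No paired analysis was possible because replicate numbers follow accession order and no label pairs libraries across groups. Over the member counts, named genes, related lists and shares, 3381 values under an alternative were labelled the same. Of the others, 199 lost the call, 34 gained it, 239 counts or shares moved and 24 were labelled as changed in sign. A count close to the main count was labelled the same. So was a change of sign within the SE in a gene uncalled in both fits. Fits per plate rest on 9 plates and have less power by construction. At E12.5, libraries of 1 plate were more alike than libraries of different plates, yet the main fit counts each library as a replicate. Its p-values there may be too small. Depth limits the adult libraries most.

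For yolk sac against E12.5 brain the 3 members higher became 0 with counts summed per plate, 8 within 1 sequencing batch, 18 without the second brain plate, 6 without the first and 1 without the second yolk sac plate; leaving out single libraries gave 2 to 6. The 0 lower became 2 with batch as covariate, 4 within 1 batch, 1 without the second brain plate and 4 without the first yolk sac plate, and stayed at 0 to 0 without single libraries. For E18.5 against E12.5 the 1 member higher became 0 with every row of at least 10 UMIs, thinned libraries, plate sums, batch as covariate or without the first E12.5 plate, and 2 with only the compared groups; single libraries gave 0 to 2. The 24 lower became 11 with plate sums and 7 without the second E12.5 plate, and 16 to 28 without single libraries. Without single libraries the adult counts were 0 to 1 higher and 28 to 32 lower against E18.5, and 0 to 0 and 37 to 37 against E12.5. With every row of at least 10 UMIs the median of all rows was -0.24 in adult against E12.5, where members stood at -2.17.

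Among related lists in E18.5 against E12.5, TOP factors lower became 9 with every row of at least 10 UMIs and 2 with plate sums, batch as covariate or without the second plate (3 to 6 without single libraries). Initiation factors lower became 5 thinned, 2 with batch and 1 without that plate (7 to 11). Assembly genes lower became 2 thinned, with plate sums, with batch and without that plate (2 to 5). Mitochondrial ribosomal proteins lower became 11, 14, 4 and 6 (17 to 24). In adult against E18.5, TOP factors lower became 8 with plate sums (9 to 13). Assembly genes lower became 2 with DESeq2, thinned or with plate sums (3 to 5), initiation factors ran 4 to 6, and mitochondrial ones became 2 thinned and 3 with plate sums (3 to 6). In adult against E12.5, initiation factors lower became 6 with batch (10 to 14). Assembly genes lower became 12 with every row of at least 10 UMIs, 3 thinned and 4 with only the compared groups (4 to 7). Mitochondrial ones became 11 thinned and 11 with batch (22 to 28), and TOP factors ran 11 to 12.

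Over rows with 1 symbol the share was 7.78% in yolk sac, and 4.49% at E18.5 and 1.74% in adults; without single libraries it was 8.91% to 9.31% in yolk sac, and 7.81% to 8.79%, 5.32% to 5.44% and 1.95% to 2.15% in E12.5, E18.5 and adult brain. Between E18.5 plates, the 1 member higher on the third than on the first became 0 with RLE scaling and with scaling without the members, and than on the second became 0 with RLE scaling.

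Signs changed, as labelled above, in these log2 fold changes. In yolk sac against E12.5 brain, with batch as covariate, within 1 batch and without the first brain plate, these were -0.03, -0.02 and -0.17 for Rplp1, -0.18, -0.17 and -0.26 for Rpl13a, -0.15, -0.14 and -0.22 for Rps3 and -0.24, -0.23 and -0.16 for Rpsa. Without the first brain plate they were -0.15 for Rps9 and 2.18 for Eef1a1. Without the first yolk sac plate Rps9 was -0.07. Rplp2 was 0.31 without the second brain and 0.14 without the second yolk sac plate, and Rpl36al -1.87 without the second yolk sac plate. In E18.5 against E12.5, Rpl4 was 0.53 and Rpl34 0.56 without the first E12.5 plate, Rpl26 -0.28, Rpsa 0.28 and Eef1a1 -0.21 without the second, and Rpl36al -1.01 with batch. The cause was not tested.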
